A study of Mus musculus with 141 samples.

Results

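Chemokines are small secreted proteins that attract leukocytes, and their receptors are membrane proteins that couple to inhibitory G proteins. The ligands are named for the spacing of their first cysteines (CC, CXC, CX3C, or a single cysteine), and atypical receptors bind ligands without G protein signaling and so scavenge them. In healthy tissue some ligands are made constantly and position resident cells, while others are made only upon infection or injury, often downstream of NF-kappaB or interferon. All genes with a chemokine or chemokine receptor symbol (Ccl, Cxcl, Cx3cl, Xcl, Ccr, Cxcr, Cx3cr, Xcr, or Ackr followed by a digit) were taken, which gave 61 of the 24423 genes measured. There were 23 CC ligands, 13 CXC ligands, 2 other ligands (*Cx3cl1* and *Xcl1*), 19 receptors, and 4 atypical receptors.

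RNA-seq was performed on whole liver, lung, and kidney from 47 Collaborative Cross (CC) strains, which are recombinant inbred mouse strains descended from a common set of founders and gave 47 libraries per tissue. Each strain was represented by 1 male of 8 to 12 weeks that gave all 3 tissues, so strain, age, and any event in a single animal cannot be told apart. All mice ate the same chow and breathed clear air in exposure chambers for 6 hours per day on weekdays before tissue was taken, and other exposures were not analysed here. Because whole tissue was sequenced, fewer cells of a type and less RNA per cell cannot be told apart.

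Total counts ran from 1738046 to 42158454 per library (median 9043226). Summed markers of each tissue matched the labels: the liver list held at least 55755 CPM (counts scaled to a common total) in every liver library and at most 1011 elsewhere, the lung epithelium list at least 7068 in lung and at most 180.3 elsewhere, and the kidney tubule list at least 8460 in kidney and at most 700.5 elsewhere. Levels are given as deposited TPM, a transcript's share of its library corrected for transcript length. Differences between tissues are log2 fold changes from a limma-voom fit of TMM-scaled counts, and a gene was called where the Benjamini-Hochberg FDR (q) did not exceed 0.1 and the log2 fold change reached 1 in either direction. The scale matters for liver: with total counts in place of TMM, the median of all genes moved to -1.44 for liver against lung, -0.95 for liver against kidney, and 0.46 for lung against kidney.

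The cysteine spacing that gives the ligands their names was read from the coding sequences of the GENCODE vM1 annotation (NCBIM37). These windows are shown because they separate the structural classes, with the first pair of cysteine codons in capitals.
Ccl9 (chr11:83386421-83392138, minus strand): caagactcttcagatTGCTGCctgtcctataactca
Cxcl12 (chr6:117118553-117131385, plus strand): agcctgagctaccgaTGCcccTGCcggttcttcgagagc
Cx3cl1 (chr8:97295909-97306323, plus strand): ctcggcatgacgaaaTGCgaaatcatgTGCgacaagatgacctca
Cxcl1 (chr5:91320267-91322141, plus strand): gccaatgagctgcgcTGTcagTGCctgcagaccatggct
Cxcl15 (chr5:91223560-91232093, plus strand): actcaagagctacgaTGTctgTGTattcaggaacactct
The codons just before the first cysteine of *Cxcl1* and *Cxcl15* are those of the ELR motif, which marks CXC ligands that attract neutrophils. It was found in 5 of 12 CXC ligands with a readable window (*Cxcl1*, *Cxcl2*, *Cxcl3*, *Cxcl5*, and *Cxcl15*), all of which lie on chromosome 5.

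The family is clustered in the genome. Chromosomes 9 and 11 held 14 members each, chromosome 5 held 11, chromosome 1 held 7, and chromosome 4 held 6. CC ligands made up most of the chromosome 11 members and CC receptors most of those on chromosome 9. Because only uniquely aligned reads were counted, near copies limit what can be seen: 40 members had transcripts whose 50-base windows each occurred once in the genome, while 5 (*Ccl19*, *Ccl21a*, *Ccl21b*, *Ccl21c*, and *Ccl27b*) had no such window, and *Ccl27a* had 22.3%. *Ccl21a*, *Ccl21b*, and *Ccl21c*, which encode a lymphoid homing ligand, and *Ccl27b* had no count in any library. The chromosome 4 copies are shown because they share nearly all of their sequence, again with the cysteine codons in capitals.
Ccl21a (chr4:42786392-42787525, minus strand): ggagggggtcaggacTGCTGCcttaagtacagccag
Ccl21b (chr4:41774204-41775337, plus strand): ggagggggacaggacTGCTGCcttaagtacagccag
Ccl21c (chr4:42391951-42393082, minus strand): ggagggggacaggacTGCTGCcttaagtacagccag
A level of 0 for these genes cannot be read as absence of their RNA.

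The family's RNA was greatest in lung. Summed over the 61 members, TPM was 2052 ± 798 (SD, n = 47) in lung, 246 ± 104 in liver, and 253 ± 78.1 in kidney. In lung the CXC ligands made up most of the sum (1424 ± 603), followed by the CC ligands (351 ± 155) and the receptors (219 ± 93.8). *Cxcl15* alone had a median of 937.43 TPM in lung, where the sum over all members had a median of 2015. Receptors summed to 14.0 ± 7.74 TPM in liver and 24.96 ± 13.4 in kidney. More members also passed an expression filter in lung, with TMM-normalized TPM above 1 in over 50% of libraries for 39 members in lung (63.9%), 20 in kidney (32.8%), and 13 in liver (21.3%). All genes had the same order, with 50.7% of the 24423 passing in lung, 44.1% in kidney, and 36.9% in liver. On log2(TPM + 1), 57.5% of all genes tested between tissues were called higher in lung than in liver. Against kidney, 30.7% were called higher in lung.

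**Figure D1:**
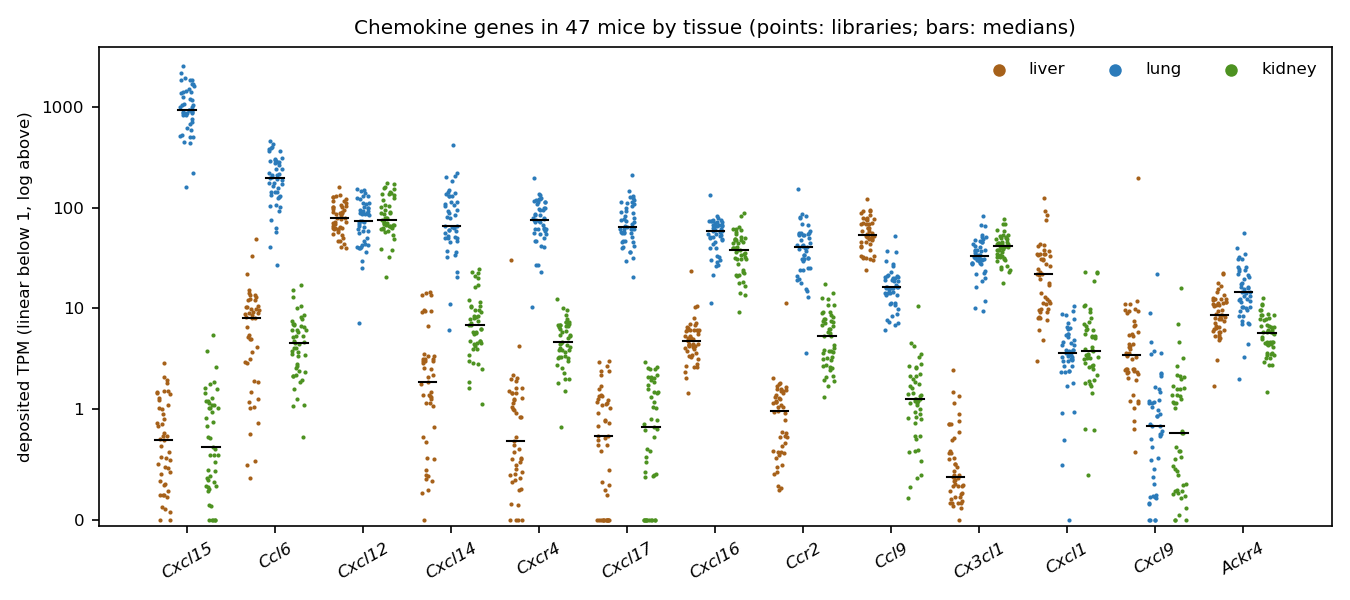
Deposited TPM of 13 chemokine genes in liver, lung, and kidney; each point is 1 library of 47 per tissue, black bars are medians, and the axis is linear below 1 and logarithmic above. *Cxcl15* is apart from all others in lung (median 937.43 TPM), *Ccl9* is highest in liver, *Cx3cl1* is near 0 in liver, and *Cxcl12* has similar medians in all 3 tissues.

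Of the 61 members, 26 passed the count filter for testing between tissues (over 1 CPM in at least 30% of libraries). These were 5 CC ligands, 9 CXC ligands, *Cx3cl1*, 10 receptors, and *Ackr4*. The filter favors genes high in at least 1 tissue, so counts over these 26 are descriptions of the tested genes and not of the family. Between liver and lung, 5 members were called higher in liver (19.2%; all tested genes 23.9%) and 16 higher in lung (61.5%; all tested genes 31%). Between liver and kidney, 10 were called higher in liver (38.5%; all 15.6%) and 5 higher in kidney (19.2%; all 20.8%). Between lung and kidney, 19 were called higher in lung (73.1%; all 25.5%) and 1 higher in kidney (3.85%; all 20.6%).

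Median log2 fold changes of the tested members were -2.40 for liver against lung (all genes -0.06), 0.67 for liver against kidney (all genes -0.00), and 2.60 for lung against kidney (all genes 0.04). The split between liver and kidney depended on the scale, for the members and for all genes. It was 10 to 5 in favor of liver with TMM, but 5 (19.2%) to 9 (34.6%) with total counts, where 8.09% of all tested genes were higher in liver and 47.8% higher in kidney. On log2(TPM + 1) it was 5 to 6 (23.1%), against 6.76% and 34.6% of all genes, and on log2(TPM + 0.1) it was 5 to 9, against 7.91% and 47%. Between liver and lung it was 5 to 16 with TMM and 3 (11.5%) to 18 (69.2%) with total counts or either TPM scale. On these scales 61.6% (total counts), 57.5% (log2(TPM + 1)), and 64.3% (log2(TPM + 0.1)) of all genes were higher in lung, so the members' share there was near that of all genes. Between lung and kidney it was 20 (76.9%) to 1 with total counts, where 33.4% of all genes were higher in lung. On log2(TPM + 1) it was 20 to 0, where 30.7% of all genes were higher in lung and 12.8% in kidney.

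Among the ligands, *Cxcl15* (lungkine, a neutrophil attractant of lung epithelium) was the most abundant member in any tissue. Its TPM in lung ran from 162.14 to 2607.43 (median 937.43), against 0 to 2.89 in liver (median 0.72) and 0 to 5.46 in kidney (median 0.66). No lung library overlapped with any liver or kidney library. The log2 fold change was -9.05 ± 0.111 (SE, q = 1.47e-89) between liver and lung. It was 9.93 ± 0.115 when lung was set against kidney (q = 2.85e-91).

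The few *Cxcl15* counts outside lung were set beside those of other lung epithelial transcripts. Summed over the 47 libraries, *Cxcl15* had 286 counts in liver, 341375 in lung, and 264 in kidney. These were 8.21%, 8.48%, and 9.24% of the counts of *Scgb1a1*, the club cell secretoglobin, in the same tissue. The liver library with the most *Cxcl15* (CC033, 7.77 CPM) and the kidney library with the most (CC004, 5.40 CPM) also ranked 1 of 47 for the summed lung epithelium list, at 180.3 CPM (liver median 27.1) and 120.8 CPM (kidney median 10.2). *Cxcl17*, a mucosal ligand, did not keep such a ratio: its counts were 3.56% of those of *Scgb1a1* in liver, 0.205% in lung, and 4.06% in kidney. Within the lung epithelium list, *Sftpb* kept its share (1.23%, 1.18%, and 1.26%) and *Sftpa1* did not (74.9%, 26.2%, and 32.3%). What part lung RNA had in the *Cxcl15* counts of the other tissues was not tested.

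**Figure D2:**
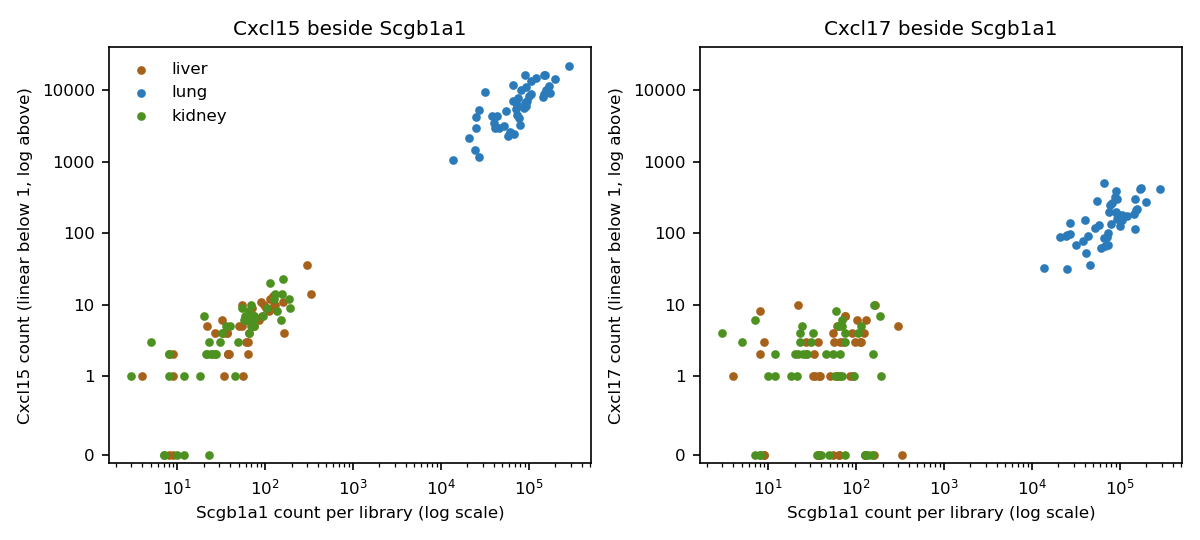
Counts per library of *Cxcl15* (left) and *Cxcl17* (right) against counts of *Scgb1a1* on a log axis, with 47 points per tissue; the vertical axes are linear below 1 and logarithmic above. *Cxcl15* lies at about the same share of *Scgb1a1* in all tissues (8.21% to 9.24%), whereas *Cxcl17* in liver and kidney lies above its lung share of 0.205%.

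*Cxcl17* in lung was between 20.31 and 212.06 TPM (median 64.29) and did not exceed 2.96 in liver or 2.94 in kidney. The groups did not overlap, with log2 fold changes of -4.88 ± 0.126 in liver against lung (q = 3.71e-60) and of 5.55 ± 0.126 in lung against kidney (q = 7.24e-65). *Ccl6*, a macrophage and neutrophil product, was the second most abundant member in lung, with 27.2 to 466.17 TPM (median 199.46). Its medians in liver and kidney were 8.06 and 4.54, and it was called higher in lung than in liver (-3.39 ± 0.126, q = 2.82e-46) and than in kidney (4.86 ± 0.130, q = 1.21e-58). *Cxcl14*, a constitutive epithelial ligand, had a lung median of 66.75 TPM (6.16 to 424.29) and was lower in liver by a log2 difference of -3.55 ± 0.183 (q = 8.53e-35).

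Other ligands called higher in lung than in both tissues were *Ccl5*, *Ccl11*, and *Cxcl13*. *Ccl5* (RANTES, made by T and NK cells) ran from 1.81 to 156.33 TPM in lung (median 33.35) and had log2 fold changes of -2.87 ± 0.196 for liver against lung and 3.45 ± 0.196 for lung against kidney. *Ccl11* (eotaxin, which attracts eosinophils) was at 5.11 to 41.78 TPM in lung and did not overlap with liver or kidney, where it reached 1.60 and 3.57 at most. *Cxcl13*, the B cell attractant, overlapped widely between tissues, with a lung median of 8.28 TPM (1.41 to 73.72) and log2 fold changes of -1.24 ± 0.333 and 2.83 ± 0.335.

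Liver had its own ligands. *Ccl9* (MIP-1 gamma, a ligand of CCR1) was at 23.98 to 123.71 TPM in liver (median 54.27), 6.04 to 52.10 in lung (median 16.20), and 0.20 to 10.68 in kidney (median 1.24). In CPM the liver libraries overlapped with neither other tissue, and the log2 fold changes were 3.27 ± 0.077 against lung (q = 6.59e-64) and 6.20 ± 0.089 against kidney (q = 5.34e-83). It was also the only member whose liver libraries were all above the others in CPM.

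*Cxcl1* (KC), an ELR ligand of CXCR2 that neutrophils follow, ran from 2.99 to 125.52 TPM in liver (median 21.89), 0 to 10.61 in lung (median 3.58), and 0.41 to 23.22 in kidney (median 3.78). Every mouse had more *Cxcl1* CPM in liver than in lung (47 of 47), and 46 of 47 had more in liver than in kidney, although the ranges overlapped. The log2 fold changes were 4.13 ± 0.160 (q = 1.14e-44) and 3.21 ± 0.158 (q = 4.12e-36). The other ELR ligands of chromosome 5 did not share this pattern of counts: *Cxcl2* had 51 counts over the liver libraries and 206 over the lung libraries, *Cxcl3* had 1 and 140, and *Cxcl5* had 23 and 424. Of the lung counts, mouse CC040 held 36.9% for *Cxcl2*, 22.9% for *Cxcl3*, and 24.8% for *Cxcl5*.

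*Ccl24* (eotaxin-2) was called higher in liver than in lung (2.03 ± 0.228, q = 4.54e-14) and than in kidney (4.17 ± 0.230, q = 2.20e-32), with a liver median of 3.22 TPM (0 to 11.36). The liver against lung difference fell below the fold threshold with total counts (0.64) and on log2(TPM + 1) (0.40). *Cxcl9*, an interferon-gamma target that attracts T cells through CXCR3, was called higher in liver than in lung (3.71 ± 0.208, q = 4.73e-32) and kidney (3.23 ± 0.206, q = 9.01e-28). Its liver median was 3.41 TPM (0.61 to 199.34), and its lung and kidney medians were 0.85 and 0.78. *Cxcl10*, of the same group, was called higher in liver than in lung (1.54 ± 0.203, q = 3.17e-11), but this turned to -0.069 on log2(TPM + 1) and -0.23 on log2(TPM + 0.1). *Cxcl10* was the single member called higher in kidney than in lung (-1.45 ± 0.203, q = 2.81e-10), with 43 of 47 mice higher in kidney. On log2(TPM + 1) this difference fell below the fold threshold (-0.82).

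Fractalkine (*Cx3cl1*), a membrane-bound ligand of epithelium and endothelium, separated kidney and lung from liver. It was at 17.79 to 76.70 TPM in kidney (median 41.55), 9.35 to 82.41 in lung (median 32.89), and 0 to 2.42 in liver (median 0.39). Liver did not overlap with either tissue, and the log2 fold changes were -4.67 ± 0.095 for liver against lung (q = 2.55e-69) and -5.47 ± 0.096 for liver against kidney (q = 4.73e-75). *Cxcl16*, the other transmembrane ligand, was also lowest in liver, with medians of 4.70 in liver, 59.01 in lung, and 38.04 TPM in kidney. It was lower in liver by -1.93 ± 0.089 and -1.92 ± 0.089, and lung against kidney was 0.02 ± 0.087 (q = 0.850).

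*Cxcl12* (SDF-1), the stromal ligand that retains CXCR4-bearing cells, was the most abundant member in liver and kidney. Its TPM was 39.68 to 161.03 in liver (median 80.29), 7.15 to 153.82 in lung (median 74.14), and 20.33 to 175.64 in kidney (median 75.01), and all 3 ranges overlapped. The liver against kidney log2 fold change was 1.02 ± 0.110 (q = 1.08e-14) with TMM but -0.034 on log2(TPM + 1) and -0.033 on log2(TPM + 0.1), and it fell below 1 with DESeq2 (0.90) or without mouse CC015 (0.99).

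All 10 tested receptors, of 19 in the family, were called higher in lung than in kidney (all tested genes 25.5%). The count filter could be passed through lung alone, so this count describes the tested receptors only. *Cxcr4*, the CXCL12 receptor of most leukocytes, was the most abundant, with 10.32 to 199.12 TPM in lung (median 76.14), 0 to 30.31 in liver (median 0.71), and 0.84 to 12.37 in kidney (median 4.63). The log2 fold changes were -4.81 ± 0.110 for liver against lung (q = 8.97e-65), -1.38 ± 0.108 for liver against kidney (q = 4.59e-22), and 3.43 ± 0.099 for lung against kidney (q = 9.37e-56). *Ccr2*, which marks inflammatory monocytes, had medians of 40.76 TPM in lung, 5.35 in kidney, and 0.98 in liver, and every pair of tissues was called (-3.74 ± 0.104, -1.37 ± 0.103, and 2.37 ± 0.096 in the order used for *Cxcr4*). *Cx3cr1*, the fractalkine receptor of monocytes and resident macrophages, had the same order, with medians of 10.44, 3.17, and 0.39 TPM.

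*Cxcr2*, the neutrophil receptor for ELR ligands, and *Cxcr5*, the B cell receptor for CXCL13, were near the floor outside lung. *Cxcr2* was at 0.45 to 45.47 TPM in lung (median 7.66) and at most 0.94 in either other tissue, with log2 fold changes of -3.69 ± 0.176 and 4.45 ± 0.177. *Cxcr5* was at 0.53 to 33.08 TPM in lung (median 9.81) and at most 2.05 elsewhere, with -3.77 ± 0.137 and 4.17 ± 0.137. *Ccr1*, a receptor for CCL9 among others, had medians of 9.58 TPM in lung, 0.09 in liver, and 0.56 in kidney (-4.57 ± 0.137 for liver against lung, q = 2.98e-54).

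*Ccr3*, the eotaxin receptor, was nearly absent from kidney, where it did not exceed 0.34 TPM, and was higher in liver (4.42 ± 0.209) and lung (3.78 ± 0.208). *Cxcr6* (the CXCL16 receptor of liver T and NKT cells) and *Xcr1* (the receptor of cross-presenting dendritic cells) had lung medians of 13.81 and 2.13 TPM, liver medians of 3.62 and 0.20, and kidney medians of 4.36 and 0.40. For *Cxcr6* the log2 fold changes were -0.50 ± 0.075 in liver against lung, below the fold threshold, and 1.16 ± 0.076 in lung against kidney. For *Xcr1* they were -1.55 ± 0.166 (q = 4.12e-15) and 1.77 ± 0.165 (q = 7.93e-18).

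*Ackr4*, which scavenges CCL19, CCL21, and CCL25, was the only tested atypical receptor, with medians of 8.63 TPM in liver, 14.48 in lung, and 5.67 in kidney. Liver exceeded kidney by 1.64 ± 0.108 (q = 6.81e-27), in 47 of 47 mice in CPM, though by 0.68 with total counts. The other atypical receptors did not pass the filter. *Ackr1*, the erythroid and venular receptor, had 760 counts in liver, 254 in lung, and 25 in kidney, while *Ackr2*, a scavenger of inflammatory CC ligands, had 21, 762, and 7, and *Ackr3*, the CXCL12 scavenger, had 10, 344, and 210.

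Of the 35 members not tested, several had counts in every lung library and fewer elsewhere. *Cxcr1* had 1427 counts over the 47 lung libraries, 9 counts in 6 liver libraries, and 3 counts in 3 kidney libraries. *Ccl22* and *Ccl17*, both CCR4 ligands of dendritic cells, had 1076 and 654 lung counts, against 33 and 3 in liver and 63 and 74 in kidney. *Cxcr3*, the receptor for CXCL9 and CXCL10, had 1058 counts in lung, 99 in liver, and 165 in kidney. *Ccl25*, the thymic and gut ligand, differed from these, with counts in 40 of the 47 lung libraries. It had 192, 144, and 238 counts in liver, lung, and kidney.

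At the other end, 8 members never exceeded 3 counts in a library: the 4 without any count, and *Ccl1*, *Ccl20*, *Ccl26*, and *Ccr9*. *Ccl26* had 1 count in the whole study. The lymphoid receptors *Ccr6* and *Ccr7* had 147 and 130 counts over the lung libraries and no more than 7 over those of liver or kidney. The remaining monocyte attractants *Ccl2*, *Ccl7*, *Ccl8*, and *Ccl12* had 473, 328, 1226, and 356 lung counts, and *Ccl3* and *Ccl4* had 364 and 254. The lung of mouse CC040 alone held 27.5% of these counts for *Ccl2*, 40.9% for *Ccl7*, 23.3% for *Ccl12*, 32.7% for *Ccl3*, and 37% for *Ccl4*. *Ccl27a* had 923 lung counts, *Ccr10* 423, *Ccr4* 246, *Xcl1* 161, *Ccr8* 112, and *Ccr1l1* 40. *Cxcl11*, the third CXCR3 ligand, had 3 counts in lung and 37 in liver.

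Single libraries stood apart within a tissue. The share of all genes for which a library was highest or lowest is not given here. The liver of CC016 had the highest TPM for 7 of the 17 members with a median of at least 5 counts there. *Cxcl9* was at 199.34 TPM (1907 counts), 58.5 times the median, *Cxcl10* at 74.99, and *Ccl5* at 125.11 (202 counts, median 1). Without that library the liver mean of *Cxcl9* went from 8.53 ± 28.6 to 4.39 ± 3.15 TPM, and that of *Ccl5* from 4.07 ± 18.1 to 1.44 ± 1.76. The same library ranked 1 of 47 for the summed T cell, neutrophil, monocyte and macrophage, dendritic cell, and platelet markers and for the interferon response genes (413 CPM, median 30.3), and 22 of 47 for B cell markers.

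The lung of CC040 had the highest TPM for 11 of 36 members. *Cxcl10* was at 138.33 TPM (median 2.03), *Ccl7* at 53.48 (median 1.42), and *Ccl2* at 51.07 (median 2.62). The ELR ligands *Cxcl2*, *Cxcl3*, and *Cxcl5* were also highest there, at 22.05, 9.90, and 19.62 TPM against medians of 0.82, 0.39, and 0.91. Neutrophil markers summed to 182 CPM in this library (rank 1, median 17.6) and interferon response genes to 482 CPM (rank 2, median 74.5).

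The kidney of CC020 was highest for 8 of 18 members, including *Cx3cr1* (17.52 TPM, 74 counts, median 3.17) and *Ccr1* (8 counts). This library held 3717587 total counts, against a kidney median of 8245850. It ranked 1 of 47 for B cell, T cell, monocyte and macrophage, and dendritic cell markers and 47 for kidney tubule markers. In the kidney of CC016, *Cxcl10* (55.45 TPM), *Cxcl9* (15.97), *Cxcl16*, and *Xcr1* were highest, and interferon response genes again ranked 1. The lung of CC015 was lowest for 20 of 36 members in TPM but for 6 in CPM, with *Cx3cr1* at 0.12 TPM (1 count, median 10.44) and *Cxcr5* at 0.53 (3 counts, median 9.81). B cell, T cell, and neutrophil markers ranked 47 in that library, and monocyte and macrophage markers 18. The part of these cell types in the members' levels was not tested.

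**Figure D3:**
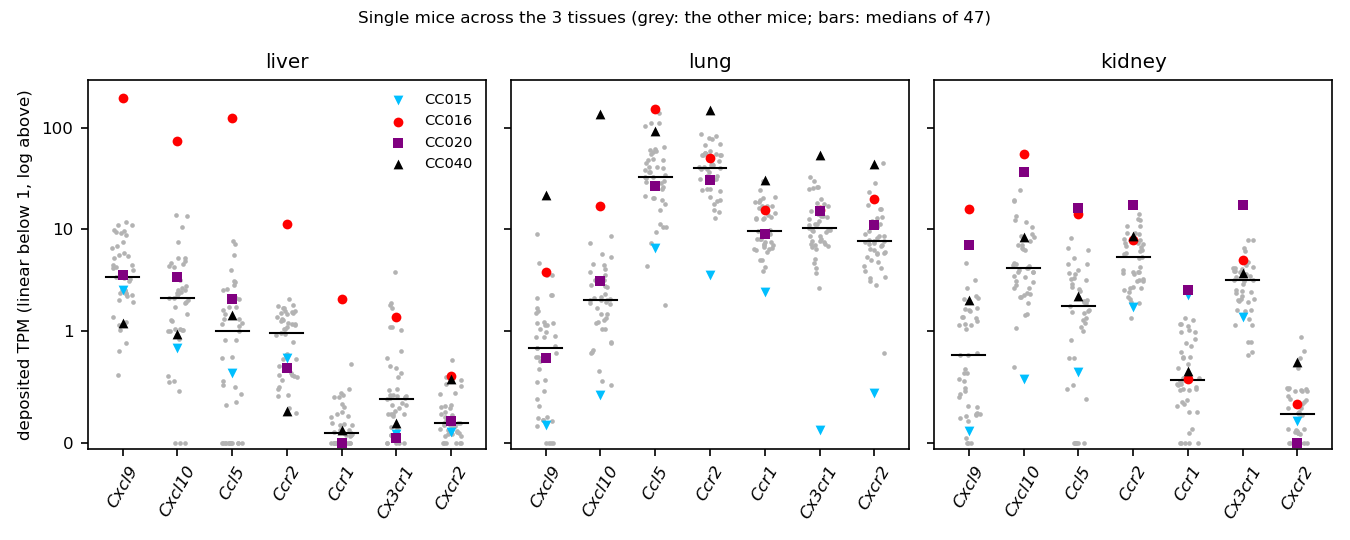
Deposited TPM of 7 members by tissue, linear below 1 and logarithmic above; grey points are single libraries, bars are medians of 47, and the libraries of CC016, CC020, CC040, and CC015 are marked. CC016 is highest for *Cxcl9* and *Cxcl10* in liver and kidney, CC040 for *Cxcl9* and *Cxcl10* in lung, and CC015 is lowest for *Ccr2*, *Cx3cr1*, and *Cxcr2* in lung.

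Leaving out CC016, CC020, and CC040 together, an alternative chosen after seeing the data, gave 22 of 27 tested members called between liver and lung (5 to 17), where 23.7% of all genes were higher in liver and 31.3% in lung. It gave 15 between liver and kidney (9 to 6; all genes 15.2% and 21.5%) and 21 between lung and kidney (20 to 1; all genes 25.3% and 21.1%).

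Promoters are shown for *Cxcl1*, which was higher in liver, and for *Cxcl2*, *Cxcl3*, and *Cxcl10*, which were highest in the lung of CC040. Of the other members highest in that lung, *Ccl3*, *Ccl9*, *Ccl12*, *Ccr2*, and *Cxcl9* held neither pattern described below and are not shown. *Ccl1* (2 counts) and *Ccl19* (27 counts) were also highest there and held a pattern, as given below, but are not shown. Some others, such as *Ccl2* and *Cxcl5*, had no promoter to search. RefSeq promoters (GRCm38.p6) were matched exactly and once to NCBIM37, and the stretch around the matched letters is given with the matches in capitals. The kappaB-like pattern was GGGA, any pair of bases, and TTCC. The interferon-response-like pattern was TTTC, any pair of bases, and TTTC, and both were searched on both strands.
Cxcl1 (chr5:91320151-91320230, plus strand): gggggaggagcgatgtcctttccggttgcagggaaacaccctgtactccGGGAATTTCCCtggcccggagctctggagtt
Cxcl2 (chr5:91332785-91332864, plus strand): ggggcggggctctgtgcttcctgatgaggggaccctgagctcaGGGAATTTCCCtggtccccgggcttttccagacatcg
Cxcl3 (chr5:91215007-91215086, plus strand): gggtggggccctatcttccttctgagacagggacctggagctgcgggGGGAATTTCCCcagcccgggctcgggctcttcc
Cxcl10 (chr5:92778046-92778145, minus strand): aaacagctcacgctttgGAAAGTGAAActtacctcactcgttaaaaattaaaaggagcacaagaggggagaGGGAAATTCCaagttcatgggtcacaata
The kappaB-like letters of *Cxcl1*, *Cxcl2*, and *Cxcl3* formed the same 11-base run, which holds overlapping matches that start at -71 and -70, -97 and -96, and -73 and -72 from the transcription start. In *Cxcl10* the interferon-like match starts at -213 and the kappaB-like match at -159. Of the 52 promoters that the table gave for 45 members, 6 held the kappaB-like pattern (the others were those of *Ccl1* and *Ccr3*), against 482 of all 32851 promoters (1.47%), and 3 held the interferon-like pattern (*Cxcl10*, *Cxcl14*, and *Ccl19*), against 1131 (3.44%). A match describes the letters only.

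Whether a mouse deviated in the same direction in its tissues was assessed with the strain terms of the limma-voom fit. Of the 26 tested members, 22 had a difference between mice at q of at most 0.1 (all tested genes 58.9%). The smallest q values were for *Cxcr2* (1.15e-08), *Ccl5* (1.51e-08), *Cxcl15* (5.92e-08), *Cxcl1* (1.10e-07), *Ccl6* (2.02e-07), *Cxcr5* (3.54e-07), *Ccr2* (4.76e-07), and *Cxcl9* (9.05e-07). Some of these had few counts in liver and kidney. Mean CPM there was 0.42 and 0.26 for *Cxcr2*, 0.35 and 0.33 for *Cxcr5*, and 1.15 and 0.73 for *Cxcl15*, and median counts of *Ccl5* were 1 and 2. What part low counts had in these q values was not tested. The genes that did not pass were *Ccr3* (q = 0.180), *Ccl11* (q = 0.336), *Ackr4* (q = 0.524), and *Cxcl12* (q = 0.952), so the most abundant ligand of liver and kidney had the least evidence of a shared difference. The count fell to 13 with total counts (all genes 30.6%) and to 10 on log2(TPM + 1) (all genes 25.9%), and it was 21 of 27 without CC016, CC020, and CC040 (all genes 56.5%).

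Levels were then compared between tissues across the 47 mice for the members that passed the TPM filter in both, which gave 40 correlations of rank-normalized values, with q taken over all genes. In liver and lung 3 of 11 members passed (all genes 13.5%), in liver and kidney 7 of 10 (all genes 23.6%), and in lung and kidney 7 of 19 (all genes 17.5%). The strongest was *Ccl5* in lung and kidney, with r = 0.569 (permutation p = 3e-05, q = 0.00111) and rho = 0.554 (permutation p = 6e-05), and r was 0.469 without the 2 mice farthest from the median. *Cx3cr1* in lung and kidney had r = 0.513 (permutation p = 0.0002, q = 0.00487) and rho = 0.551 (permutation p = 0.0001), with r = 0.471 without the 2 farthest mice. With TPM that was not TMM-scaled, *Ccl5* was the only 1 of the 7 lung and kidney correlations that passed, and r for *Cx3cr1* was 0.358.

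*Ccl6* was correlated between liver and lung (r = 0.467, permutation p = 0.00096, q = 0.0170, rho = 0.494, permutation p = 0.00059, and r = 0.496 without the 2 farthest mice). This call was lost with TPM that was not TMM-scaled (r = 0.229) and without the mice that had a library under 4000000 counts. *Ccl6* was correlated between liver and kidney as well, with r = 0.425 (permutation p = 0.00289, q = 0.0243) and rho = 0.429 (permutation p = 0.00308), but it did not pass without CC016, CC020, and CC040 (r = 0.315), without the mice of low counts (r = 0.301), or with TPM that was not TMM-scaled (r = 0.336). *Cxcr6* passed in lung and kidney (r = 0.442, permutation p = 0.00211, q = 0.0217, rho = 0.488, permutation p = 0.00066, and r = 0.487 without the 2 farthest mice), but not without the mice of low counts (r = 0.386) or with TPM that was not TMM-scaled (r = 0.265). *Cxcl12* was the only member with a negative call, with r = -0.374 in liver and lung (permutation p = 0.0105, q = 0.0810, rho = -0.343, permutation p = 0.0191), which did not pass without mouse CC015 (r = -0.345), with TMM-scaled CPM (r = -0.353), with TPM that was not TMM-scaled (r = -0.406), without the mice of low counts (r = -0.335), or without CC016, CC020, and CC040 (r = -0.340).

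The liver and kidney correlations lost more calls than those of the other tissue pairs when the mice that stood apart were left out. Without CC016, CC020, and CC040, 1 of the liver and kidney correlations passed (*Cxcr6*) in place of 7, and r for *Cxcl10* went from 0.395 to 0.304, for *Cxcl16* from 0.414 to 0.326, for *Cxcl1* from 0.331 to 0.290, and for *Cxcl12* from 0.364 to 0.316. In lung and kidney 5 passed in place of 7, and r for *Cxcl10* went from 0.368 to 0.274.

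Within a tissue, 29 listed pairs of genes could be compared across mice. None of the 14 ligand and receptor pairs passed, with q taken over all other genes of the tissue. This depended on the scale: 9 passed with TPM that was not TMM-scaled, 3 on log2(TPM + 1), and 1 with TMM-scaled CPM (*Cx3cl1* with *Cx3cr1* in kidney). The largest was *Cxcl16* with *Cxcr6* in kidney (r = 0.453, permutation p = 0.00144, q = 0.217, rho = 0.430, permutation p = 0.0029, and r = 0.342 without the 2 farthest mice). The same pair in lung had r = -0.327 (permutation p = 0.0245, q = 0.799, rho = -0.399, permutation p = 0.00612).

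Ligands that are often made together gave more calls, with 2 of 6 pairs, or 5 with TPM that was not TMM-scaled and 4 on log2(TPM + 1). *Cxcl9* and *Cxcl10* in liver had r = 0.616 and rho = 0.627 (permutation p = 1e-05 for each, the smallest that 100000 permutations can give, q = 0.00492), and r = 0.543 without the 2 farthest mice. *Cxcl10* ranked 7 of 9001 genes by its correlation with *Cxcl9*, for which 1.3% of genes were at q of at most 0.1. *Ccl3* and *Ccl4*, which are neighbors on chromosome 11, had r = 0.588 in lung (permutation p = 2e-05, q = 0.0103, rho = 0.535, permutation p = 0.0002, 1.3% of genes called), but r was 0.503 and did not pass without CC016, CC020, and CC040. *Cxcl9* with the interferon target *Gbp2* in liver had r = 0.471 (permutation p = 0.00106, q = 0.0820, rho = 0.462, permutation p = 0.0013) and was lost in the same way (r = 0.405).

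Receptors were also compared with markers of cells that are known to carry them. *Cxcr5* with *Cd79a*, a B cell receptor subunit, in lung had r = 0.889 and rho = 0.872 (permutation p = 1e-05 for each, the smallest possible, q = 3.17e-13, 2% of genes called). *Cxcr2* with *S100a8*, a neutrophil calcium-binding protein, had r = 0.746 and rho = 0.698 (permutation p = 1e-05 for each, the smallest possible, q = 5.64e-06, 1.38% of genes called). Without the 2 farthest mice r was 0.864 and 0.703. *Cd79a* ranked 3 and *S100a8* ranked 4 among 12388 genes for their receptors.

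*Cx3cr1* with *Csf1r*, the receptor that sustains macrophages, had r = 0.672 in lung (permutation p = 1e-05, the smallest possible, q = 5.97e-05, rho = 0.609, permutation p = 1e-05, 8.4% of genes called) and r = 0.590 in kidney (permutation p = 2e-05, q = 0.00238, rho = 0.581, permutation p = 5e-05, 2.82% of genes called). Without the 2 farthest mice these were 0.601 and 0.487, and the kidney pair did not pass without the mice that had a library under 4000000 counts (r = 0.519). *Ccr2* with *Ly6c2*, a monocyte surface marker, had r = 0.480 in lung (permutation p = 0.00063, q = 0.0232, rho = 0.494, permutation p = 0.00066, 6.91% of genes called), which did not pass without CC016, CC020, and CC040 (r = 0.392). In kidney *Ccr2* with *Ly6c2* did not pass (r = 0.353, permutation p = 0.0149, q = 0.297, rho = 0.315, permutation p = 0.0319, and r = 0.227 without the 2 farthest mice). *Cxcr6* with the T cell gene *Cd3e* in lung had r = 0.225 (permutation p = 0.128, q = 0.647, rho = 0.304, permutation p = 0.0384).

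**Figure D4:**
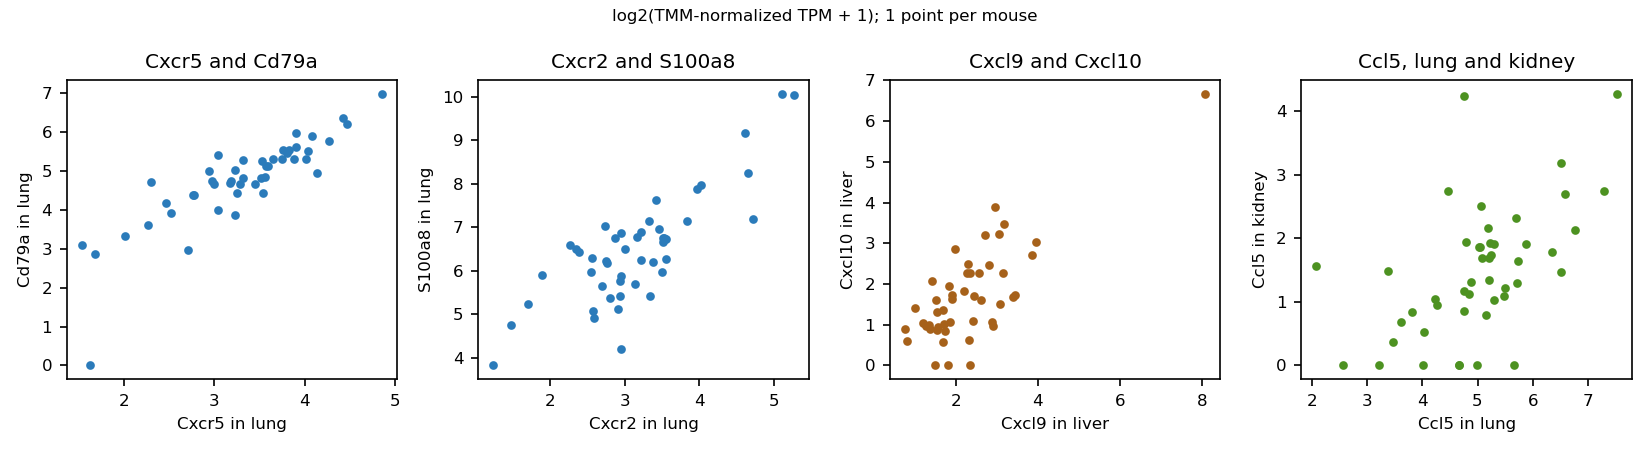
Log2 of TMM-normalized TPM plus 1 for 4 pairs, with 1 point for each of 47 mice: *Cxcr5* and *Cd79a* in lung (r = 0.889), *Cxcr2* and *S100a8* in lung (r = 0.746), *Cxcl9* and *Cxcl10* in liver (r = 0.616), and *Ccl5* in lung and kidney (r = 0.569). The printed r values are from rank-normalized levels.

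The spread across mice differed widely between members. Above counting error, the coefficient of variation of CPM in liver was 3.87 for *Cxcl9*, 1.57 for *Ccr2*, 1.25 for *Cxcl14*, 1.20 for *Ccl6*, and 0.917 for *Cxcl1*. Without CC016, CC020, and CC040 it was 0.726 for *Cxcl9*, 0.387 for *Ccr2*, and 0.830 for *Ccl6*, while *Cxcl14* and *Cxcl1* were at 1.28 and 0.864. In lung it was 1.38 for *Ccl8*, 1.07 for *Cxcl13*, 0.862 for *Ccl5*, and 0.857 for *Ccr3*, and these were 1.42, 1.07, 0.775, and 0.895 without the same mice. In kidney it was 1.48 for *Cxcl10* and 0.996 for *Cxcl1*, or 0.723 and 1.01 without them. Abundant ligands had less spread, with 0.268 for *Cxcl12* and 0.256 for *Ccl9* in liver and 0.265 for *Cx3cl1* in kidney.

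Genes that act with the family were listed without regard to how they moved. Of all tested genes, 31% were higher in lung than in liver and 25.5% higher in lung than in kidney. Like the members, a listed gene could pass the count filter through lung alone, so counts here describe the tested genes only. Of 4 tested family genes under other names (*Pf4*, *Ppbp*, *Cmklr1*, and *Cklf*), all 4 were called higher in lung than in liver and in kidney. Of 23 tested signal transduction genes, 16 were higher in lung and 0 higher in liver between those tissues, with 4 and 4 between liver and kidney and 16 and 1 between lung and kidney. Enzymes and carriers that act on chemokines (10 tested) were evenly divided for liver against lung, at 2 and 2. They leaned to lung when it was set against kidney (5 to 1), and to liver when it was set against kidney (5 to 0). Among the leukocyte marker lists, the tested markers were 5 of 8 for B cells, 6 of 8 for T cells, 3 of 8 for neutrophils, and 4 of 6 for dendritic cells. All of these were called higher in lung than in liver, while of 8 monocyte and macrophage markers 3 were higher in lung and 1 in liver. Against kidney, all 5 B cell, 6 T cell, and 3 neutrophil markers, 3 of 4 dendritic cell markers, and 6 of 8 monocyte and macrophage markers were higher in lung. Between liver and kidney, 6 of 8 monocyte and macrophage, 3 of 5 B cell, and 1 of 3 neutrophil markers were higher in liver, 1 of 4 dendritic cell markers was higher in kidney, and none of the 6 T cell markers was called. The receptors *Ccr2*, *Cx3cr1*, and *Cxcr4* were higher in kidney in that comparison. Summed T cell markers were at 6.88 to 43.4 CPM in lung, 0 to 20.5 in liver, and 0 to 15.9 in kidney, and the part of these cells in the receptor levels was not tested.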

How the data were processed

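The authors mapped reads with STAR (2.5.3a) to pseudo-genomes of each CC strain (build mm9, NCBIM37) with RefSeq genes and quantified the uniquely aligned reads with RSEM. The deposited files hold expected counts, TPM, and FPKM per gene, and FPKM was not used here. Here the deposited expected counts were rounded (25 values over all files were not whole), genes were kept where 30% or more of the libraries exceeded 1 CPM (12127), and counts were TMM-scaled (edgeR 4.0.16) and fitted with limma-voom (3.58.1, R 4.3.3) on strain and tissue. The 3 tissues of a strain came from 1 mouse per the labels, so strain was the replicate block. Sequencing batches were not analysed here. Fits were tested on simulated data. For correlations, TMM-normalized TPM were ranked and transformed to normal scores (Blom offset 0.375) for genes above 1 in more than 50% of libraries, with two-sided tests of 100000 permutations and q over all genes from the asymptotic p of r. DESeq2 (1.42.0), edgeR, and other scales, filters, and samples were alternatives. Named genes were those with the largest fold changes, levels, spread, or mouse differences and those in the listed pairs; others were named after their values were seen. The members and lists were chosen with earlier results of these data known.

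Depth was 1738046 to 42158454 counts per library, and a gene at 3 counts or fewer in a library was treated as at the floor. Library and mouse are the unit of replication, with 1 mouse per strain, and p-values measure the spread between these mice. Promoter sequences were taken from RefSeq (GRCm38.p6) and gene positions from GENCODE vM1. Values of 1 tested receptor are not reported here.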

Additional observations from a re-analysis of the deposited data

How the results depend on the processing

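Of the fold changes named, 644 of those recomputed under the alternatives kept their direction and their side of the thresholds, 24 fell below a threshold, and 4 turned: *Cxcl10* in liver against lung (-0.069 on log2(TPM + 1), -0.23 on log2(TPM + 0.1)) and *Cxcl12* in liver against kidney (-0.034 and -0.033 on the same scales). The cause was not tested, but these scales also moved the median of all genes for liver. Without the fold threshold, 24 members were called between liver and kidney in place of 15. The share of all genes for this is not given here, so the count is not a result about the members. Without the low-count filter, which left 57 members to be tested, 37 (64.9%) were called between liver and lung and 37 between lung and kidney, against 53.6% and 35% of all genes, some from single counts. Without the replicate block, 21, 15, and 20 members were called, as with it, and the block changed no call. Members with a difference between mice numbered 13 with total counts and 10 on log2(TPM + 1), in place of 22, and fewer of all genes were called as well (30.6% and 25.9% in place of 58.9%). Of the recomputed correlations, 130 were counted as kept and 45 lost their call. The 130 include the 25 without the 2 farthest mice, for which no q was computed and which kept their sign only. With TPM not TMM-scaled, 0, 2, and 1 members were called between liver and lung, liver and kidney, and lung and kidney, and 12 and 6 pairs within lung and kidney. Without the 11 mice that had a library under 4000000 counts, these were 0 and 4 for the first 2 comparisons, and 0 pairs in kidney and 1 in liver. Kidney had 2 pairs with TMM-scaled CPM and 5 on log2(TPM + 1). Without CC016, CC020, and CC040, 1 member was called between liver and kidney, with 3 pairs in lung and 1 in liver. The loss of mice lowers the power of each test. Shares of all genes under these correlation settings are not given here, so these counts describe only how the calls depended on the setting. Depth limited the members at or under 3 counts, which could not be compared, and near copies on chromosome 4 could not be told apart by uniquely aligned reads.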

Other observations

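*Ccl19*, a ligand of CCR7 that guides lymphocytes and dendritic cells, had counts in only 3 of the 47 mice, although none of its 50-base windows occurs once in the NCBIM37 genome. CC039 had 4 counts in lung and 7 in kidney, CC040 had 3 in liver, 27 in lung, and 19 in kidney, and CC041 had 26 in lung and 10 in kidney. All other libraries were at 0. The reads of each strain had been aligned to its own pseudo-genome, which was not analysed here. *Ackr1*, which was not tested, had counts in all 47 liver libraries, where its highest TPM was 12.04 (median 3.12).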
